A study of Drosophila melanogaster with 26 samples.

Results

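The ecdysone-responsive genes described here are 9 genes chosen by name: EcR, usp, br, Eip75B, Eip74EF, Eip71CD, Eip55E, ImpE1 and ImpE2. They were 9 of the 14659 features measured in fat body, the larval organ that stores fat and glycogen, and all 9 were among the 6896 features with enough signal to be tested. Ecdysone is the steroid hormone of insect moulting and metamorphosis. Its active form binds a receptor made of EcR and Usp, which switches on early genes, mostly transcription factors, and these in turn control later target genes. In fat body, ecdysone is known to end larval growth and to start the remodelling that comes with the wandering stage and puparium formation.

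RNA was sequenced from fat bodies of female Drosophila melanogaster larvae at the wandering stage, the end of the third larval instar. Of the libraries, 13 came from larvae fed high sugar (0.7 M sucrose) and 13 from larvae fed the control food (0.15 M sucrose). Every larva carried UAS-Dcr2, a transgene on the X chromosome, and a GAL4 driver, cg or r4, that is active in fat body; cg is also known to be active in haemocytes. The driver females had been crossed to males of the w1118 or the 60100 control stock. The labels call the w1118 crosses VDRC 60000 in the genotype field, and they describe all crosses as controls for RNAi lines that were not analysed here.

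The libraries formed 4 sets, named here by the numbers in their titles. In w1118 cg, set 13-21 held 3 high-sugar and 3 control libraries, and set 49-54 held 3 and 3. In w1118 r4, set 55-63 held 3 and 3, and in 60100 r4, set 67-92 held 4 and 4. The labels do not say that libraries came from separate groups of larvae, so p-values measure only the spread between these samples. The labels give 2 ways of isolating fat body, dissection by hand and shearing with centrifugation, and do not say which library had which.

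Each value is a multiple of the upper quartile of its own library, taken over the features of its set, so a gene at 1 lies at about the 75th percentile of that library. The sets were scaled over different features, so diets were compared within a set only. Sequencing depth is unknown, and 6183 to 8709 features were above 0 in a library. In set 49-54 they numbered 6500 to 6636 on high sugar against 7086 to 7934 on control. In set 55-63 they numbered 6183 to 6625 on high sugar against 7124 to 7538 on control. The diets overlapped in set 13-21 (7825 to 8360 against 7945 to 8040) and set 67-92 (7778 to 8176 against 8023 to 8709). Genes listed at 0 on high sugar in sets 49-54 and 55-63 thus stand beside fewer detected features in general. Of 9 fat body markers, 8 were detected in every library, with summed levels of 5272 to 14903. The yolk protein gene Yp1 was at 0 in every library. Set 13-21 stood apart in salivary gland markers, with summed levels of 2632 to 5884 in its high-sugar and 2113 to 3570 in its control libraries, against at most 751 in a high-sugar and at most 591 in a control library of the other sets. The fat body sums of set 13-21 were 6906 to 8379 on high sugar and 8343 to 9574 on control. Detection of fat body markers thus does not show the purity of these libraries. In bulk tissue, fewer cells of a type and less RNA per cell cannot be told apart.

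Averaged over the 4 sets with equal weight, 6 of the 9 genes were lower on high sugar and 0 were higher (limma, Benjamini-Hochberg adjusted p under 0.05). The 6 were br, Eip75B, Eip74EF, Eip55E, ImpE1 and ImpE2. Of all 6896 features tested, 36.6% passed in either direction and 22.1% were lower. The median log2 difference was -0.53 over the 9 genes and -0.07 over all features tested. Log2 differences are high sugar minus control after adding 0.1 to every value, so they shrink the changes of weakly expressed genes.

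The calls were unevenly spread over the sets. In set 13-21 only Eip55E passed, where 1.94% of features were lower. In set 49-54, 4 genes were lower (br, Eip55E, ImpE1 and ImpE2), where 11.7% of features were lower. In set 55-63, 3 genes were lower (br, ImpE1 and ImpE2), where 11.7% of features were lower. In set 67-92, 7 genes were lower, all but Eip71CD and Eip55E, where 17.8% of features were lower. The median log2 difference over the 9 genes was 0.04 in set 13-21, -0.66 in set 49-54, -0.53 in set 55-63 and -0.98 in set 67-92, against 0.03, -0.01, -0.07 and -0.12 over all features tested.

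A joint test asked whether the diet difference itself varied among the 4 sets. It passed for 3 of the 9 genes, Eip55E, ImpE1 and ImpE2, and for 23.8% of all features tested (limma, adjusted p under 0.05). For the other 6 it did not pass, so a call in a set and none in another does not show that those genes responded differently. In set 67-92 the median over all features was -0.12 as deposited and 0.01 after median-of-ratios scaling, and usp was the gene of the 9 that lost its call there under that scaling.

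**Figure D1:**
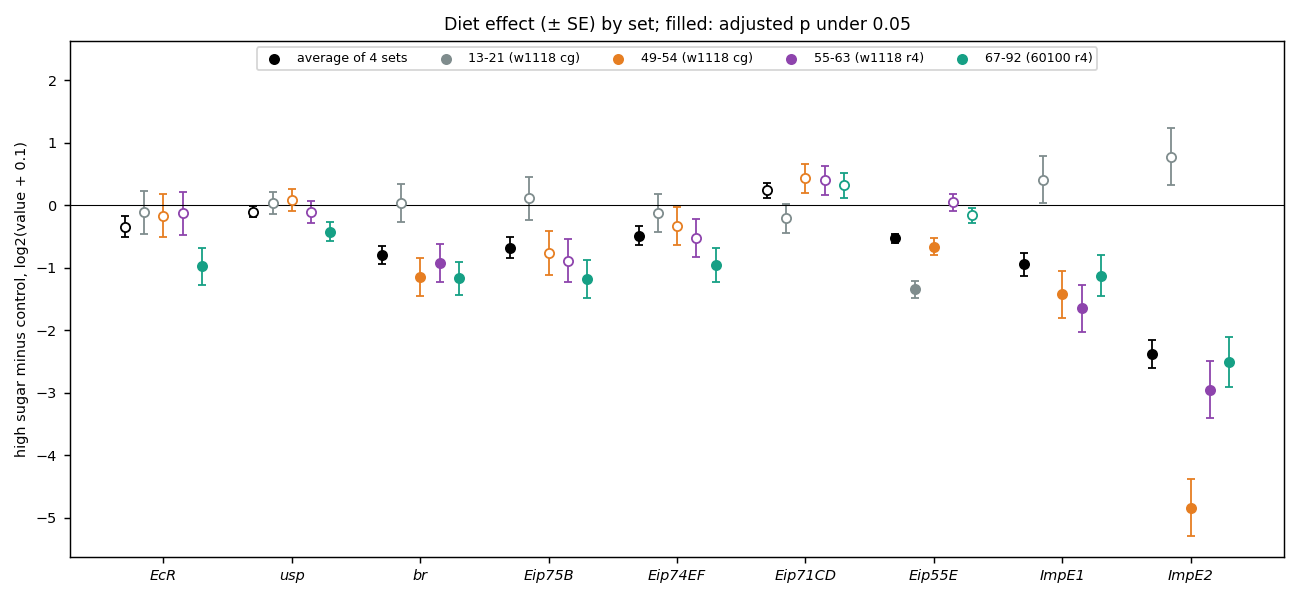
Log2 difference (high sugar minus control, on the log2(value + 0.1) scale) of each of the 9 genes in each of the 4 sets and averaged over them, with standard errors; filled points passed at an adjusted p under 0.05. In set 13-21, Eip55E alone passed, at -1.34, while in set 67-92 EcR, usp, br, Eip75B, Eip74EF, ImpE1 and ImpE2 passed; the points of ImpE1 and ImpE2 in set 49-54 depend on the pseudocount, because those high-sugar libraries are listed at 0.

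The receptor genes moved little in 3 of the 4 sets. EcR encodes the hormone-binding nuclear receptor. In set 67-92 it stood at 0.278, 0.131, 0.228 and 0.342 in high-sugar libraries, against 0.413, 0.965, 0.554 and 0.430 in control libraries. Every high-sugar library lay below every control library, with a 2.42-fold lower mean. The log2 difference was -0.98 ± 0.30 (SE; limma adjusted p = 0.0228).

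In set 13-21 EcR stood at 1.53, 1.08 and 0.868 on high sugar, against 1.47, 1.17 and 1.08 on control. In set 49-54 it stood at 0.858, 0.863 and 1.14 on high sugar, against 1.195, 1.09 and 0.954 on control. In set 55-63 it stood at 0.661, 0.459 and 0.296 on high sugar, against 0.389, 1.06 and 0.289 on control. The diet groups overlapped in all 3 of these sets, and the log2 differences of -0.11, -0.17 and -0.13 did not pass. The average difference was -0.35 ± 0.17 (adjusted p = 0.111), and the joint test of a difference between sets did not pass (adjusted p = 0.296).

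The gene usp encodes the partner receptor, the fly counterpart of vertebrate RXR. In set 67-92 usp stood at 0.459, 0.265, 0.452 and 0.484 on high sugar, against 0.565, 0.692, 0.458 and 0.621 on control, and the groups overlapped. Its log2 difference there was -0.42 ± 0.15 (limma adjusted p = 0.0436), and -0.27 (adjusted p = 0.164) after median-of-ratios scaling. In the other 18 libraries usp lay between 0.276 and 0.561, and no diet difference passed. Averaged over sets it was -0.10 ± 0.08 (adjusted p = 0.356).

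The 3 early genes br, Eip75B and Eip74EF encode transcription factors that the receptor switches on directly. Each was lower on high sugar on average. The gene br, which encodes the Broad zinc-finger proteins needed for entry into metamorphosis, was the most abundant of the 3. In set 49-54 it stood at 1.73, 1.68 and 2.41 on high sugar, against 4.45, 4.44 and 4.20 on control. In set 67-92 it stood at 1.41, 0.788, 1.02 and 1.80 on high sugar, against 2.47, 3.14, 1.97 and 4.12 on control. The diets did not overlap in either set, where 18.6% and 18.8% of all features had high-sugar libraries wholly below control.

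In set 55-63 br stood at 3.54, 2.25 and 1.70 on high sugar, against 5.996, 4.86 and 3.36 on control, so that 1 high-sugar library lay above the lowest control library. In set 13-21 the diets were interleaved, at 4.96, 3.56 and 5.62 on high sugar, against 5.22, 3.77 and 4.62 on control. The means were 2.25-fold lower on high sugar in set 49-54, 1.90-fold lower in set 55-63 and 2.33-fold lower in set 67-92. The log2 differences were -1.15 ± 0.30, -0.92 ± 0.30 and -1.17 ± 0.26 (limma adjusted p = 0.00788, 0.0346 and 0.0039), and 0.04 in set 13-21. The call in set 55-63 was lost without any 1 of libraries 55, 56, 62 and 63, and without set 13-21 in the fit (adjusted p = 0.0521). It was also lost in a limma fit of set 55-63 alone (adjusted p = 0.176). The average was -0.80 ± 0.15 (adjusted p = 0.000293), and -1.08 without set 13-21. Under all alternatives it ran from -1.08 to -0.59 (limma adjusted p at most 0.0133). The joint test did not pass (adjusted p = 0.0855).

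Eip75B encodes a nuclear receptor that binds haem. Its values in set 67-92 were 0.652, 0.261, 0.361 and 0.880 on high sugar, against 0.946, 1.51, 0.821 and 1.99 on control, a 2.45-fold lower mean. The log2 difference was -1.18 ± 0.30 (limma adjusted p = 0.00926), although the highest high-sugar library lay above the lowest control library. In set 49-54 it stood at 0.958, 0.924 and 1.07 on high sugar, against 2.26, 1.75 and 1.33 on control. The groups did not overlap there, yet the difference of -0.76 ± 0.35 did not pass (adjusted p = 0.129). In set 55-63 it stood at 1.08, 0.671 and 0.530 on high sugar, against 1.34, 2.14 and 1.03 on control, with a difference of -0.88 ± 0.35 that did not pass (adjusted p = 0.0787). In set 13-21 it stood at 1.53, 1.31 and 1.52 on high sugar, against 1.64, 1.04 and 1.38 on control. The average was -0.68 ± 0.17 (adjusted p = 0.00404), and -0.94 without set 13-21. Under all alternatives it ran from -0.94 to -0.37 (limma adjusted p at most 0.0317).

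Eip74EF encodes a transcription factor of the ETS family. Its values in set 67-92 were 0.323, 0.097, 0.224 and 0.495 on high sugar, against 0.516, 0.700, 0.505 and 0.661 on control, with no overlap and a 2.09-fold lower mean. The log2 difference was -0.95 ± 0.27 (limma adjusted p = 0.0140); the call was lost without library 76 (adjusted p = 0.0648) and in a fit of that set alone (adjusted p = 0.0743). In the other 3 sets the diets overlapped and the differences of -0.13, -0.33 and -0.53 did not pass. The average was -0.49 ± 0.15 (adjusted p = 0.0149). It rested on set 67-92: without that set it was -0.33 (adjusted p = 0.123).

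**Figure D2:**
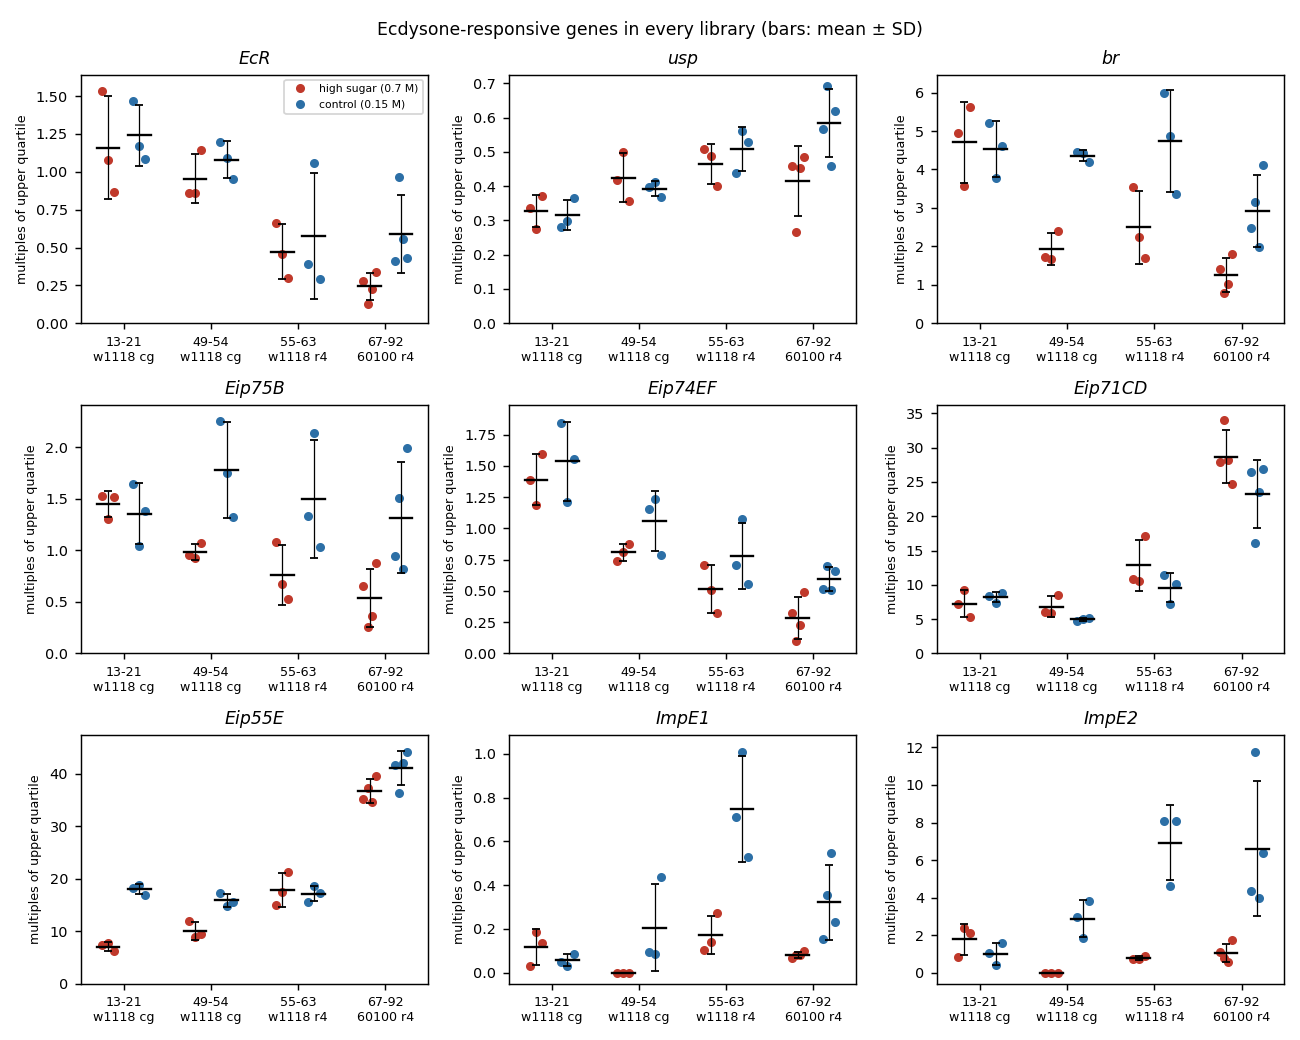
Value of each of the 9 genes in each library, in multiples of the upper quartile, by set, with the high-sugar libraries left of the control libraries and bars for mean ± SD. ImpE2 was at 0 in the 3 high-sugar libraries of set 49-54 and between 0.588 and 1.72 in those of sets 55-63 and 67-92, against 1.87 to 11.8 in the control libraries of these 3 sets.

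Eip71CD and Eip55E were found as ecdysone-induced proteins but encode enzymes. Eip71CD encodes a methionine sulfoxide reductase, which repairs oxidised methionine in proteins. It did not pass in any set or on average, at 0.24 ± 0.11 (limma adjusted p = 0.105). In set 49-54 every high-sugar library lay above every control library, at 6.02, 5.89 and 8.53 on high sugar, against 4.67, 4.96 and 5.24 on control, where 18.9% of all features were apart in that direction. Without set 13-21 its average was 0.38 (adjusted p = 0.0225), with the high-sugar libraries higher. Under all alternatives the average ran from 0.07 to 0.38.

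Eip55E encodes cystathionine gamma-lyase, an enzyme of cysteine synthesis. In set 13-21 it stood at 7.33, 7.69 and 6.15 on high sugar, against 18.2, 18.9 and 16.96 on control, a 2.55-fold lower mean, where 9.96% of all features had high-sugar libraries wholly below control. In set 49-54 it stood at 11.98, 8.84 and 9.39 on high sugar, against 17.3, 14.8 and 15.6 on control, a 1.58-fold lower mean. The diets did not overlap in either of these w1118 cg sets, and the log2 differences were -1.34 ± 0.14 and -0.66 ± 0.14 (limma adjusted p = 2.86e-06 and 0.00108).

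In the r4 sets Eip55E did not pass in the fit reported here, although in set 67-92 it was called lower under quantile normalization (-0.35) and under robust fits with array weights (-0.23). In set 55-63 it stood at 14.9, 17.5 and 21.3 on high sugar, against 15.6, 18.6 and 17.4 on control, a difference of 0.05 (limma adjusted p = 0.873). In set 67-92 it stood at 35.3, 37.4, 34.6 and 39.6 on high sugar, against 41.8, 36.4, 42.1 and 44.3 on control, a difference of -0.16 (adjusted p = 0.336). The diet difference varied among the sets (joint adjusted p = 0.000111). Without set 13-21 the joint p was 0.0490 and the average was -0.26 (adjusted p = 0.0113), against -0.53 ± 0.07 with it. Driver and set cannot be told apart in these comparisons.

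ImpE1 and ImpE2 are known as genes that ecdysone induces in imaginal discs as these turn into adult appendages. ImpE2 encodes a secreted protein, and ImpE1 a protein with repeats like those of the LDL receptor. ImpE2 had the largest average difference of the 9 genes. In set 55-63 it stood at 0.746, 0.716 and 0.892 on high sugar, against 8.09, 4.599 and 8.10 on control. In set 67-92 it stood at 1.09, 0.786, 0.588 and 1.72 on high sugar, against 4.34, 11.8, 3.998 and 6.36 on control. The diets did not overlap in either set, as for 17.9% and 18.8% of all features in that direction, with 8.83-fold and 6.32-fold lower means on high sugar and log2 differences of -2.95 ± 0.46 and -2.51 ± 0.40 (limma adjusted p = 0.000129 and 0.000282).

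In set 49-54 ImpE2 was listed at 0 in all 3 high-sugar libraries, against 2.97, 1.87 and 3.82 on control (adjusted p = 1.28e-07), and no fold is given. In set 13-21 the order was not the same. ImpE2 stood there at 0.813, 2.37 and 2.12 on high sugar, against 1.03, 0.422 and 1.59 on control, overlapping groups with a difference of 0.77 ± 0.46 that did not pass (adjusted p = 0.521). The joint test passed (limma adjusted p = 3.52e-05). It still passed without set 13-21 (adjusted p = 0.0154), where it compared the 3 sets in which ImpE2 was lower. The difference in set 49-54 that entered it was -4.84, and its size depends on the pseudocount. Under alternatives it ran from -8.12 to -1.93, against -3.11 to -2.12 in set 55-63 and -2.62 to -1.82 in set 67-92. Whether the size of the drop differed among these 3 sets therefore cannot be read from this test. With the 3 backgrounds in place of the 4 sets, which pools sets 13-21 and 49-54, the joint test of ImpE2 did not pass (adjusted p = 0.885). The average of -2.38 ± 0.22 (adjusted p = 8.35e-08) depends on the pseudocount through set 49-54; without that set it was -1.56 (adjusted p = 0.000821).

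ImpE1 was the least abundant of the 9 genes, and some of its values were near 0. In set 55-63 it stood at 0.105, 0.142 and 0.272 on high sugar, against 0.710, 1.01 and 0.530 on control. Set 67-92 had 0.0656, 0.08002, 0.0827 and 0.0997 on high sugar, against 0.154, 0.354, 0.547 and 0.231 on control. The means were 4.33-fold and 3.92-fold lower on high sugar, with log2 differences of -1.65 ± 0.38 and -1.13 ± 0.33 (limma adjusted p = 0.00413 and 0.0172). In set 49-54 it was listed at 0 in all 3 high-sugar libraries, against 0.0934, 0.0875 and 0.435 on control (adjusted p = 0.00838). That call was lost without library 51, the highest of its group, with a pseudocount of 1, under quantile normalization and with that set alone. The call in set 67-92 was lost without library 83 and under quantile normalization, and the call in set 55-63 with that set alone (adjusted p = 0.0518).

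In set 13-21 ImpE1 stood at 0.0295, 0.188 and 0.136 on high sugar, against 0.0508, 0.0319 and 0.0871 on control, and did not pass (difference 0.41, adjusted p = 0.750). The joint test passed with all sets (limma adjusted p = 0.0241) but not without set 13-21 (adjusted p = 0.736), without any 1 of libraries 14, 20 and 21, under quantile normalization, with 5 sets or with background in place of set. ImpE1 and ImpE2 were the only genes of the 9 whose high-sugar libraries lay wholly below control in 3 of the 4 sets, which held for 4.61% of all features tested.

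Markers of several other tissues also differed between the diets, and those of trachea in the same sets as ImpE1 and ImpE2. Of the 4 tracheal markers 3 were matched (btl, verm and serp). Their summed level was 0 in all 3 high-sugar libraries of set 49-54, against 0.36 to 0.44 on control. It was 0.14 to 0.31 on high sugar against 0.63 to 1.14 on control in set 55-63, and 0.50 to 0.98 on high sugar against 1.42 to 1.72 on control in set 67-92. In set 13-21 it was 0.39 to 0.77 on high sugar against 0.25 to 0.44 on control. High-sugar libraries thus lay below control in the same 3 sets as ImpE2, and btl was at 0 throughout set 55-63.

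The 10 imaginal disc markers, all matched, summed to 1.60 to 1.83 on high sugar against 1.04 to 1.35 on control in set 13-21. They summed to 0.60 to 1.24 on high sugar against 1.01 to 1.45 on control in set 49-54, with overlap. In set 55-63 the sums were 0.41 to 0.72 on high sugar against 0.95 to 1.18 on control, and in set 67-92 they were 0.20 to 0.53 on high sugar against 0.87 to 1.69 on control. The markers vg, nub, Dll, wg, rn, dpp, eya and so were at 0 in all high-sugar libraries of set 49-54, where eya and so were also at 0 on control. The markers nub, Dll, wg, rn, eya and so were at 0 in all high-sugar libraries of set 55-63, where so was also at 0 on control. In set 67-92, wg was at 0 on high sugar and no marker was at 0 in all control libraries. Set 13-21 went the other way, with vg, nub, wg, rn, eya and so at 0 in all control libraries and only so on high sugar. Most of the disc sum came from ap and sd, with means of 0.487 and 0.304 over 26 libraries. The next highest was Dll at 0.0431.

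The 9 haemocyte markers differed most in set 49-54, at 2.27 to 3.20 on high sugar against 14.3 to 19.7 on control, with NimC1, lz, PPO1 and PPO2 at 0 on high sugar and lz at 0 on control. They were 4.36 to 4.87 on high sugar against 5.84 to 14.7 on control in set 55-63, where He and lz were at 0 on high sugar and lz on control. They were 9.74 to 14.4 on high sugar against 11.3 to 13.7 on control in set 67-92, where He and lz were at 0 on both diets. In set 13-21 they were 4.83 to 5.48 on high sugar against 4.70 to 7.01 on control, with lz at 0 on both diets. Salivary gland markers in set 49-54 were 5.41 to 18.5 on high sugar against 33.3 to 591 on control, and the diets overlapped in the other 3 sets.

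The remaining marker lists took several directions. The 13 midgut markers were 1.40 to 1.97 on high sugar against 4.94 to 66.8 on control in set 49-54, and 2.15 to 4.65 on high sugar against 50.4 to 141.8 on control in set 55-63. Their diets overlapped in sets 13-21 and 67-92. Jon99Ci, LysB, LysE, Amy-p and Amy-d were at 0 in all high-sugar libraries of sets 49-54 and 55-63, where LysE was also at 0 on control. The Malpighian tubule markers, 3 of 4 matched, were 2.22 to 2.38 on high sugar against 14.7 to 22.9 on control in set 49-54, with Irk2 and Cyp6a18 at 0 on high sugar. In set 55-63 they were 1.31 to 2.44 on high sugar against 2.50 to 5.19 on control, and they overlapped in sets 13-21 and 67-92.

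In set 67-92 other lists were higher on high sugar. The 8 muscle markers were 20.1 to 62.5 on high sugar against 10.8 to 17.1 on control, the 8 ring gland markers 34.6 to 55.8 against 10.7 to 13.8, and the 8 epidermis and cuticle markers 127 to 248 against 53.5 to 126. Within the ring gland sum there, sad averaged 33.4 and sro 11.7 on high sugar, against 2.95 and 8.69 on control. The ring gland markers nvd, spok and jhamt were at 0 there on both diets. The 5 neuron and glia markers were 21.29 to 26.7 on high sugar against 19.6 to 21.26 on control in set 67-92, and overlapped in the other sets. Syt1 carried the neuron and glia sum, with a mean of 15.7 over 26 libraries, against 0.0792 for elav, the next highest. Muscle markers were 4.36 to 6.32 on high sugar against 9.42 to 13.6 on control in set 13-21, and 9.22 to 10.1 on high sugar against 5.88 to 9.12 on control in set 55-63. Ring gland markers were 4.92 to 5.85 on high sugar against 2.31 to 4.29 on control in set 55-63, and epidermis and cuticle markers 20.4 to 62.4 against 75.3 to 91.8 in set 13-21. The part of other tissues in the results for ImpE1, ImpE2 and the early genes was not tested.

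**Figure D3:**
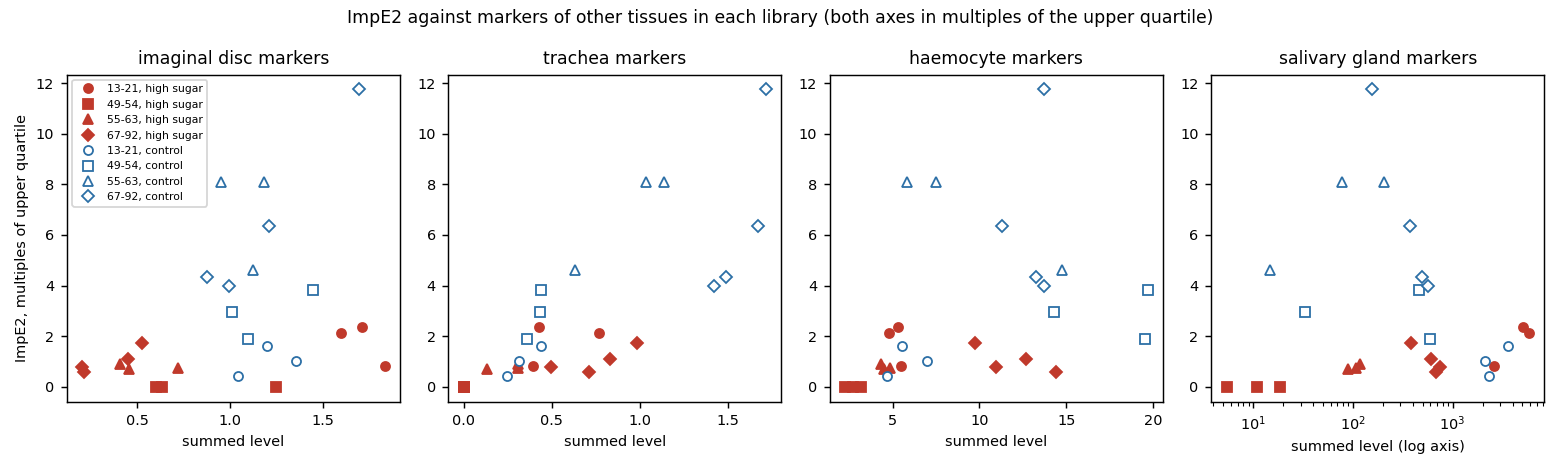
ImpE2 level in each library (vertical axis) against the summed level of markers of imaginal disc, trachea, haemocyte and salivary gland (horizontal axes; the last is a log axis), all in multiples of the upper quartile, with filled symbols for high sugar and open symbols for control. The tracheal sum is 0 in the 3 high-sugar libraries of set 49-54, where ImpE2 is also 0, and reaches 1.72 in a control library of set 67-92, where ImpE2 is 11.8.

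Levels in the control libraries were taken as a reading of stage, since larvae at the end of the instar are exposed to rising ecdysone. They are levels of whole libraries, whose content of other tissues was not the same in all sets. Orders among genes assume values scaled by transcript length, as the counting program named in the notes gives them; the table states no unit. Eip55E was the most abundant of the 9 genes in all 13 control libraries and Eip71CD came next in all 13. The gene br ranked 3 in 7 libraries and 4 in 6, and ImpE2 ranked 3 in 6, 4 in 5 and 7 in 2. Eip75B ranked 5 in 11 libraries, and ImpE1 was last in 8. EcR ranked 5 to 9, usp 6 to 9 and Eip74EF 4 to 8, and their order changed from set to set.

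Ratios to usp within a library do not depend on the scaling, but they also carry differences in usp. As deposited, control means of usp were 0.316, 0.393, 0.509 and 0.584 in sets 13-21, 49-54, 55-63 and 67-92, each set on its own scale. In control libraries EcR stood at 4.02 ± 1.13 times usp in set 13-21 and at 2.74 ± 0.22 in set 49-54 (mean ± SD, n = 3 each), against 1.11 ± 0.69 in set 55-63 (n = 3) and 1.01 ± 0.35 in set 67-92 (n = 4). Eip74EF stood at 4.94 ± 1.39, 2.68 ± 0.47, 1.53 ± 0.43 and 1.02 ± 0.08 times usp in the same order of sets. For EcR the single ratios of sets 13-21 and 49-54 overlapped, and sets 55-63 and 67-92 did not differ beyond their spread.

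In sets 13-21, 49-54, 55-63 and 67-92 the control means of br were 4.53, 4.36, 4.74 and 2.93 as deposited. Its mean ratios to usp in these libraries were 14.6, 11.1, 9.58 and 4.96. ImpE2 ran in another order, at 3.14 ± 1.54 times usp in set 13-21, 7.45 ± 2.92 in set 49-54, 14.01 ± 5.27 in set 55-63 and 10.9 ± 4.19 in set 67-92, and the last 2 did not differ beyond their spread. Set 13-21 thus had the highest mean ratios of EcR, br and Eip74EF to usp and the lowest of ImpE2. The early gene Eip75B did not share this order, at 4.36 ± 1.27, 4.50 ± 1.05, 2.94 ± 0.94 and 2.21 ± 0.70 times usp. Set 13-21 was also the set in which none of EcR, br, Eip74EF, Eip75B and ImpE2 passed the diet comparison. Control libraries of set 13-21 also had salivary gland marker sums of 2113 to 3570, against at most 591 in a control library of the other sets. The part of salivary gland in these ratios was not tested. Sets 13-21 and 49-54 share stock and driver. In comparisons with the other sets, stock and driver cannot be told apart from set.

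The same ratios gave a view of diet that no scaling of a library can change. In set 49-54 br stood at 4.75 ± 1.78 times usp on high sugar (SD, n = 3), against 11.1 ± 0.32 on control. In set 67-92 its ratio ran from 2.25 to 3.73 on high sugar, against 4.31 to 6.64 on control, with no overlap. In set 55-63 the ratios of br overlapped, at 4.25 to 6.98 on high sugar against 6.37 to 13.7 on control. ImpE2 stood at 1.72 ± 0.44 times usp on high sugar against 14.01 ± 5.27 on control in set 55-63, and at 2.55 ± 0.96 on high sugar against 10.9 ± 4.19 on control in set 67-92. In set 67-92 the ratio of EcR to usp was 0.493 to 0.706 on high sugar against 0.693 to 1.39 on control, so that these groups overlapped when EcR was read against its partner.

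**Figure D4:**
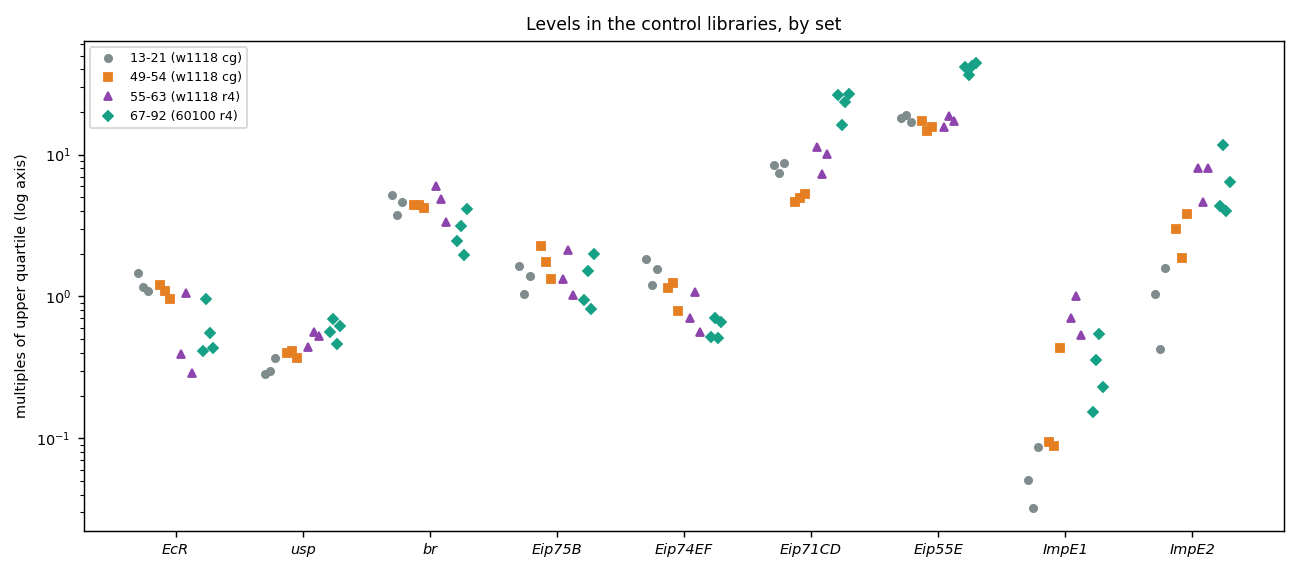
Levels of the 9 genes in the 13 control libraries by set, in multiples of the upper quartile on a log axis. ImpE1 spans the widest range of set means, 13.2-fold between set 55-63 (0.749) and set 13-21 (0.0566, near 0). ImpE2 spans 6.82-fold, and Eip75B spans 1.35-fold. These folds are on the deposited scale, where the sets were scaled over different features. After median-of-ratios scaling over all libraries they were 13.7-fold for ImpE1, 7.17-fold for ImpE2 and 1.77-fold for Eip75B.

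Within the 8 groups of a set and a diet, the early genes shared their extremes. The library lowest in br was also lowest in Eip75B in 8 of 8 groups, and lowest in Eip74EF in 7 of 8. The library highest in EcR was highest in Eip75B in 7 of 8. ImpE1 and ImpE2 shared their highest library in 5 of the 7 groups in which they were above 0. In the 60100 r4 high-sugar group, library 92 was highest and library 76 lowest for EcR, usp, br, Eip75B and Eip74EF, while Eip71CD was highest in 76 and lowest in 92. These genes share the divisor of their library, and the part of the scaling was not tested.

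Likeness was measured as Pearson's r of log2 values over 26 libraries after subtracting set means, among 3294 features with a gene symbol. The diet itself and the scaling of a library enter r, and no p is given. For br the nearest genes were jing (r = 0.969), a zinc-finger transcription factor gene, and kek5 (r = 0.954), a transmembrane protein with leucine-rich repeats. For Eip75B they were Cdep (0.957) and the kinesin gene Khc-73 (0.946). For Eip74EF they were Xrp1 (0.952), a stress-responsive transcription factor gene, and shrb (0.943), a gene of the ESCRT membrane-sorting machinery.

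For ImpE2 the nearest were the cell adhesion gene Fas3 (r = 0.950) and kuk (0.948), which encodes a nuclear envelope protein. For ImpE1 they were the chitinase gene Cht3 (0.856) and the cyclin gene CycB (0.844). For EcR they were X11L (0.918) and the kinase gene hipk (0.894), and for usp wdp (0.852) and l(1)G0156 (0.852). The enzymes had neighbours of another kind: Eip55E had Got2 (0.861), an aspartate aminotransferase gene, and the cytochrome P450 gene Cyp12d1-p (0.855). Eip71CD had the weakest, the glutathione transferase gene GstE3 (0.749) and the proteasome gene Pros35 (0.723).

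Other genes of the pathway were taken from 6 further lists. Of 11 listed ecdysone-regulated transcription factors 6 were tested, and 4 were lower and 0 higher on average, where 22.1% of all features were lower and 14.5% higher; the median log2 difference was -0.44 against -0.07 over all features tested. The gene crol, which encodes a zinc-finger protein, was 0.0897 to 0.260 on high sugar against 0.464 to 0.780 on control in set 67-92. Its average difference was -0.53 (limma adjusted p = 0.000619). The nuclear receptor gene Hr39 fell by 0.38 (adjusted p = 0.00994), Kr-h1, an early gene of juvenile hormone as well, by 0.50 (adjusted p = 0.0108), and the nuclear receptor gene Eip78C by 0.52 ± 0.19 (adjusted p = 0.0334). By set, 0, 1, 0 and 4 of the 6 were lower in sets 13-21, 49-54, 55-63 and 67-92, where 1.94%, 11.7%, 11.7% and 17.8% of all features were lower. Without set 67-92 none of these 4 calls held, and the Eip78C call was also lost without any 1 of 8 libraries.

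Of 9 receptor cofactors, all tested, 3 were lower and 0 higher (median -0.17), beside 22.1% and 14.5% of all features. They were tai, a coactivator of EcR, with -0.48 (limma adjusted p = 0.0109), the chromatin remodeller gene ISWI with -0.60 (adjusted p = 0.0146), and rig with -0.24 (adjusted p = 0.00678). E(bx), a partner of ISWI, had -0.24 (adjusted p = 0.0648). The calls of tai, ISWI and rig were each lost without set 55-63. Those of tai and rig were also lost without set 67-92, and those of ISWI and rig under quantile normalization. Of 11 tested ecdysone-inducible effectors, from 24 listed, 1 was lower, the kinase gene Eip63E with -0.55 (adjusted p = 0.00337), a call lost without set 67-92 (adjusted p = 0.0553). The salivary gland genes Eig71Ea, Eig71Ec and Eig71Ee had averages of -1.48, -1.17 and -0.65 that did not pass. Without set 13-21 those of Eig71Ea (-2.20, limma adjusted p = 0.0441) and Eig71Ee (-1.24, adjusted p = 0.0461) did. Under all alternatives the average of Eig71Ea ran from -2.51 to -0.56 and that of Eig71Ee from -1.24 to 0.51. Eig71Ee was lower in set 49-54 (adjusted p = 0.000507), where it was 0 to 0.369 on high sugar against 0.525 to 13.1 on control. Eig71Ee stood at 87.9 to 172 on high sugar against 44.3 to 85.2 on control in set 13-21, and at no more than 4.77 on high sugar and 5.13 on control in sets 55-63 and 67-92.

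Of 8 tested genes of ecdysone synthesis, transport and breakdown, from 14 listed, 2 were higher and 1 was lower, beside 14.5% and 22.1% of all features. E23, an ABC transporter gene that ecdysone induces, fell by 0.84 ± 0.18 (limma adjusted p = 0.0014). The synthesis gene sad, which encodes a P450 enzyme of the ring gland, was 22.6 to 43.6 on high sugar against 1.57 to 6.78 on control in set 67-92, and 0.575 to 2.57 on high sugar against 0.00516 to 0.642 on control in set 55-63. In the other 2 sets it was at most 0.0534 on high sugar and 0.151 on control. Its average difference was 1.48 ± 0.30 (adjusted p = 0.000755), and the joint test passed (adjusted p = 0.0012). The synthesis gene sro rose by 0.33 (adjusted p = 0.0312), a call lost without any 1 of 8 libraries, and the call of sad was lost without set 67-92. Oatp74D, the ecdysone importer gene, had -0.28 (adjusted p = 0.125).

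Of 8 tested juvenile hormone genes, from 10 listed, 2 were higher and 0 lower on average, beside the same 14.5% and 22.1%: the epoxide hydrolase genes Jheh1 (0.77, limma adjusted p = 3.81e-05) and Jheh3 (adjusted p = 6.52e-07). Jheh3 stood at 9.77 to 14.4 on high sugar against 5.14 to 8.09 on control in set 67-92, and at 2.94 to 4.31 on high sugar against 2.12 to 4.05 on control in set 13-21. Of 6 genes that mark the stage of the fat body, 3 were higher and 3 lower, again beside 14.5% and 22.1%. The storage protein genes Lsp1gamma and Lsp2 had averages of 0.85 and 0.36 (limma adjusted p = 0.00136 and 0.000894), while Lsp1alpha and Fbp2 fell by 0.80 and 0.29 (adjusted p = 0.00449 and 0.000857). In set 49-54 Lsp1gamma was 1479 to 2207 on high sugar against 126 to 357 on control, while in set 67-92 it was 457 to 1072 on high sugar against 964 to 1498 on control. Without set 49-54 the average calls of Lsp1gamma and Lsp2 were lost, that of Lsp1alpha was lost without set 55-63 or set 67-92, and that of Fbp2 without set 13-21 (-0.07, adjusted p = 0.459). In set 49-54 Lsp1alpha was 897 to 1032 on high sugar against 406 to 681 on control, a difference that did not pass.

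**Figure D5:**
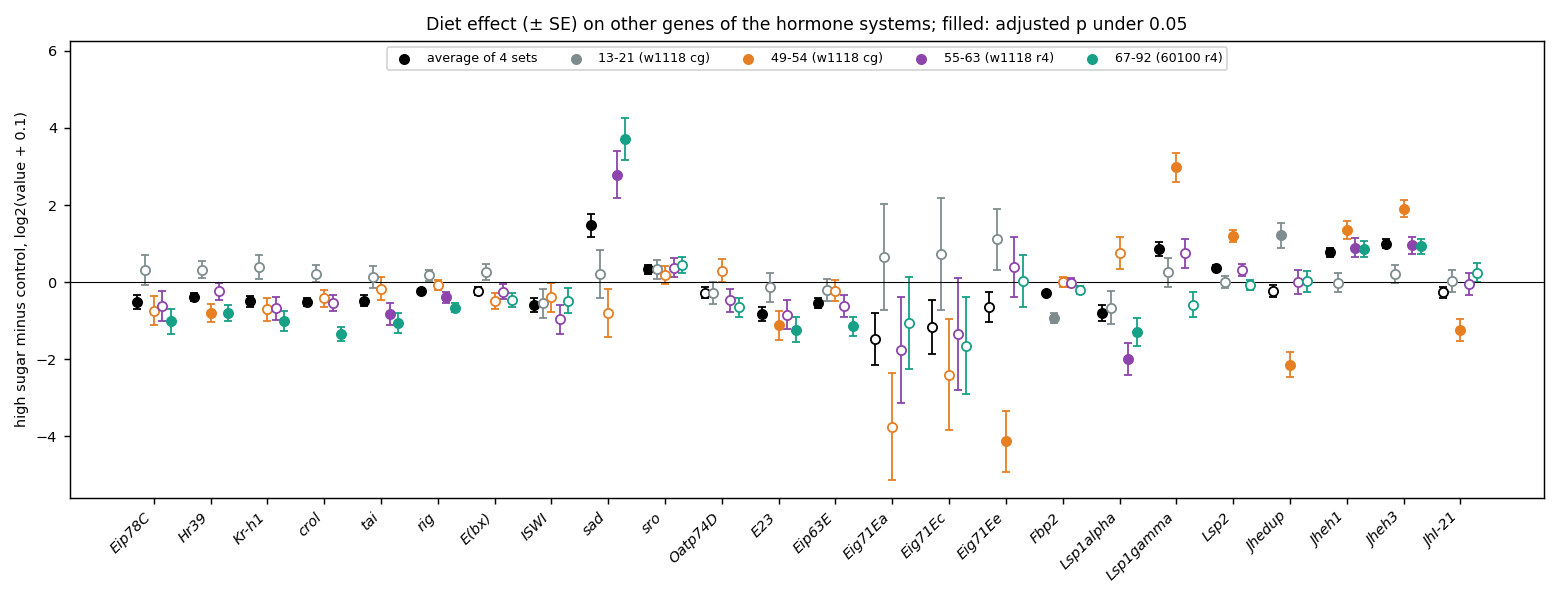
Log2 difference (high sugar minus control, log2(value + 0.1), with standard errors) of the named genes in the other hormone and stage lists, averaged over sets (black) and in each set; filled points passed at an adjusted p under 0.05, and points of groups listed at 0 depend on the pseudocount. The averages of the 4 ecdysone-regulated transcription factors lie between -0.38 and -0.53, while those of sad, at 1.48, and Jheh1, at 0.77, are positive.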

How the data were processed

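RNA depleted of ribosomal RNA was sequenced from 26 larval fat body libraries, per the labels' protocols. Tools named in the submitters' processing notes are Bowtie 0.12.7, TopHat 1.3.2 and Cufflinks 1.1.0, with build dm3; settings and annotation were not given in the sources used here. No unit stands in the table's header. The values deposited by the authors are a ratio, each column divided by its own upper quartile: its 75th percentile equals 1 over a number of features fixed within each set. Depth per library is unknown, so no counting precision can be given.

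Libraries were grouped by sucrose level, stock, driver and number in the titles. Features with a mean of at least 0.1 over 26 libraries (6896 of 14659) were taken as log2(value + 0.1) and tested with limma 3.58.1 in R 4.3.3 (two-sided, moderated variances with an intensity trend), in 1 fit of 8 set-by-diet means. Contrasts were high sugar minus control in each set and their equal-weight mean, and a joint F test compared the 4 differences. Adjustment was Benjamini-Hochberg over all tested features, with a threshold of 0.05. The fit was tested on simulated data. The 9 genes, the 6 other gene lists, the 11 marker lists and the tests were chosen with earlier results of these data known, which also set the pseudocount and filter. The text names all 9 genes, up to 4 tested genes of each other list by smallest adjusted p, and the 2 most similar genes of each of the 9. Of 158 wanted symbols 155 were matched. Alternatives covered pseudocount, filter, scaling, spread, sets and leaving out libraries. No sequences or coordinates are given.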

Additional observations from a re-analysis of the deposited data

Results flagged for a closer look

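In 36 combinations of a gene and a group of 4 or 6 libraries, 2 had a library far from the rest by Dixon's criterion, where chance gives about 1 in 20. The usp level in high-sugar library 76 of 60100 r4 was 0.2649, below the other 3 of its group. The ImpE1 level in control library 51 of w1118 cg was 0.4352, above the other 5. That group pools sets 13-21 and 49-54, which were scaled over different features; within set 49-54 the other control libraries had 0.0934 and 0.0875.

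Among the 9 genes the diet difference varied among sets, by the joint test of limma, for Eip55E (adjusted p = 0.0001114), ImpE1 (0.02412) and ImpE2 (3.516e-05). Among named genes of the other lists it varied for the transcription factor genes Hr39 (adjusted p = 0.02518) and crol (0.003148) and the cofactor gene rig (0.008658). It also varied for sad (adjusted p = 0.001197) and Eig71Ee (0.0057). Fat body stage genes with such differences were Fbp2 (adjusted p = 0.00126), Lsp1alpha (0.01029), Lsp1gamma (0.0002874) and Lsp2 (0.0005896). Juvenile hormone genes were Jhedup (adjusted p = 0.0002064), Jheh1 (0.02952), Jheh3 (0.004587) and JhI-21 (0.02823).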

How the results depend on the processing

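No result changed direction among those called. With a filter at a mean of 1, calls numbered 1113 on average, 894 in set 49-54, 562 in set 55-63, 739 in set 67-92 and 931 by the joint test, against 2527, 1605, 1415, 1763 and 1641, because fewer genes were tested; 3 of the 9 genes were then called lower in set 67-92, against 7. For the other moved counts the cause was not tested. In set 13-21, 208 calls became 480 with no filter, 328 with array weights and 60 with that set alone. In set 67-92 there were 1057 with quantile normalization, 3824 with array weights and 968 with 67 averaged with 83 and 75 with 91; alone, 3 of the 9 genes were lower. Set 55-63 alone gave 505 calls and 1 of the 9 genes. The average without set 67-92 gave 1660. The joint test gave 2830 with array weights, 149 (with 1 of the 9 genes) with background in place of set and, in checks added after seeing the data, 813 without set 13-21 and 777 without set 49-54. Leaving out 1 library gave 119 to 239 calls in set 13-21 (lowest without library 20), 900 to 1543 in set 55-63 (lowest without 62) and 981 to 2252 in set 67-92 (lowest without 91), with 4 to 7 of the 9 genes there (4 without 76).

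On average the calls of br, Eip75B, Eip55E, ImpE1 and ImpE2 held under every alternative in which these genes were tested. In set 67-92 usp lost its call under 7 of 11 alternatives and without any 1 of 8 libraries, and EcR lost its call under pseudocount 1, quantile normalization, averaged pairs, that set alone, and without 68, 76 or 91. The Eip75B call there was lost with that set alone, and the losses of br, Eip74EF and ImpE1 are given beside their results. No paired analysis was possible because high-sugar and control libraries share no numbers. Unknown depth limits ImpE1 and other genes listed at or near 0.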
